A study of Mus musculus with 8 samples.

Results

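The genes examined here encode the proteasome, and they were compared by the part of the particle their products build. Members were all rows of the count table whose symbols start with Psma, Psmb, Psmc, Psmd or Psme followed by a number and whose mean count over the 6 libraries was above 50. Of 49 rows with such a symbol, 42 passed, out of 27041 rows in the table and 11364 rows above the same limit. They comprised 7 alpha subunits and 7 constitutive beta subunits of the core, 3 immunoproteasome beta subunits, 6 ATPases and 3 other subunits of the base, 8 lid subunits, 3 chaperones of base assembly and 4 activators. The remaining member, *Psmc3ip*, matched by symbol alone and encodes a meiotic recombination factor that is not part of the proteasome. *Psmb9* lay just inside the limit with a mean count of 59.8, through the Ctrl group. The highest row below the limit was *Psme2b* with 9.17. The other rows below the limit were *Psma8*, a testis subunit, and 5 pseudogenes, with mean counts from 0.17 to 2.67.

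RNA was sequenced from muscle of 9-week-old male mice on a C57BL/6J background. Ctrl mice carried floxed LSD1L2/L2 alleles without a Cre transgene. In LSD1skm-/- mice the same LSD1L2/L2 alleles were combined with HSA-Cre, a recombinase active in myofibers, which deletes exon 1 of *Kdm1a*, the gene for the histone demethylase LSD1. The deletion is limited to myofibers, whereas the libraries were made from whole muscle and hold RNA of every cell type in it. The study names gastrocnemius for the sequenced muscle, and the labels give skeletal muscle without naming one. Of 8 labelled libraries, 4 per group, 6 have counts in the table, Ctrl replicates 1 to 4 and LSD1skm-/- replicates 1 and 2, and the remaining pair was not analysed here. Per library the table held 36355538, 32616912, 36213735 and 41278769 reads for the Ctrl group, in replicate order, and 30654828 and 37788092 for the LSD1skm-/- group.

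The proteasome degrades proteins that carry ubiquitin chains. Its core is a barrel in which rings of beta subunits, some of them proteolytic, lie between outer rings of alpha subunits that gate the entrance. A regulatory particle caps the barrel, with a base of ATPases that unfold the substrate and a lid that removes ubiquitin, and other activators can take its place. Interferon replaces the catalytic beta subunits by immunoproteasome forms, and in muscle the pathway is known for the breakdown of contractile proteins during atrophy.

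The label of 1 library went against the targeted gene. *Kdm1a* is encoded at positions 136550540 to 136602723 of chromosome 4 (minus strand, build GRCm38, also called mm10). It measured 22.9, 22.0 and 28.1 CPM in Ctrl replicates 1 to 3, where CPM is the count scaled to library size with edgeR's TMM factors. It measured 2.96 and 3.48 CPM in LSD1skm-/- replicates 1 and 2. At 3.66 CPM, the library labelled Ctrl replicate 4 was close to the LSD1skm-/- libraries and far from the other Ctrl libraries. The log2 fold change of *Kdm1a* was -2.565 with all 6 libraries and -2.91 without it (standard errors 0.74 and 0.17). Labels were kept as deposited. Most comparisons are given with all 6 libraries and again without the library labelled Ctrl replicate 4, and some with all 6 alone. Myofiber markers were high in every library, with a summed level from 147300 to 176900 CPM over 7 genes, of which *Myh4* was the most abundant.

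Of the 42 members, 3 (7.14%) passed an adjusted p of 0.05 in edgeR without the library labelled Ctrl replicate 4, against 5.39% of all tested genes. With all 6 libraries and genotype alone in the model 0 did in edgeR or in DESeq2, as for 0% of all tested genes in edgeR, while 4 members (9.52%) had an unadjusted p under 0.05 against 8.9% of all tested genes. *Psme1*, which encodes the alpha subunit of an interferon-inducible activator, was higher in LSD1skm-/- muscle. *Psmd8*, whose product is the last to join the lid, and *Psme4*, an activator that binds the core without ATP hydrolysis, were lower. Because the samples are bulk tissue, fewer cells of a type and less RNA per cell cannot be told apart.

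*Psme1* lies on the plus strand of chromosome 14 from 55578123 to 55581529. It measured 27.7, 22.8 and 23.8 CPM in Ctrl replicates 1 to 3, 52.1 CPM in the library labelled Ctrl replicate 4, and 48.5 and 64.6 CPM in LSD1skm-/- replicates 1 and 2. The library labelled Ctrl replicate 4 thus fell between both LSD1skm-/- libraries, and the groups overlapped only through it. Without it Ctrl muscle averaged 24.75 ± 2.62 CPM (SD, n = 3) and LSD1skm-/- muscle 56.55 ± 11.4 CPM (SD, n = 2), and the log2 fold change was 1.19. The standard error was 0.15 and the adjusted p was 0.0059 (edgeR's quasi-likelihood test, Benjamini-Hochberg over all tested genes). With all 6 libraries the log2 fold change was 0.84 with a standard error of 0.33 and an adjusted p of 0.557 in the same edgeR test. Over all alternatives the adjusted p of *Psme1* in edgeR or DESeq2 ran from 1.5e-09, in DESeq2 without that library, to 0.947. Some 14.1% of the 50-base stretches of its longest coding transcript also occur in other genes, and reads from those stretches may be missing from its count.

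*Psmd8*, a lid subunit, lies on the minus strand of chromosome 7 from 29174188 to 29180701. It measured 285, 258 and 234.5 CPM in Ctrl replicates 1 to 3, 150.4 CPM in the library labelled Ctrl replicate 4, and 131 and 151.5 CPM in LSD1skm-/- replicates 1 and 2. Every Ctrl library but the one labelled replicate 4 stood above both LSD1skm-/- libraries. Leaving that library out, *Psmd8* was at -0.875 ± 0.125 (log2 fold change and its standard error), and edgeR gave an adjusted p of 0.00984. With all 6 libraries it was -0.72 (standard error 0.24, adjusted p = 0.557 in edgeR), and over all alternatives the adjusted p ran from 1.34e-08, in DESeq2 without that library, to 0.947.

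*Psme4* lies on the plus strand of chromosome 11 from 30771726 to 30880361. It measured 309, 378 and 361.5 CPM in Ctrl replicates 1 to 3, 219 CPM in the library labelled Ctrl replicate 4, and 249 and 222 CPM in LSD1skm-/- replicates 1 and 2. The library labelled Ctrl replicate 4 was the lowest of the 6. Without it *Psme4* was at -0.57 ± 0.13 (log2 fold change and its standard error). The adjusted p of 0.0476 in edgeR was close to the threshold, and over all alternatives it ran from 0.000726, in DESeq2 without that library, to 0.947. With all 6 libraries it was -0.43 (standard error 0.22, adjusted p = 0.57 in edgeR). DESeq2 without that library called 4 members (9.52%), *Psme4*, *Psme1*, *Psmd8* and *Psmd4*, against 9.29% of all tested genes. No 50-base stretch of *Psmd8* or *Psme4* was shared with another gene.

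**Figure D1:**
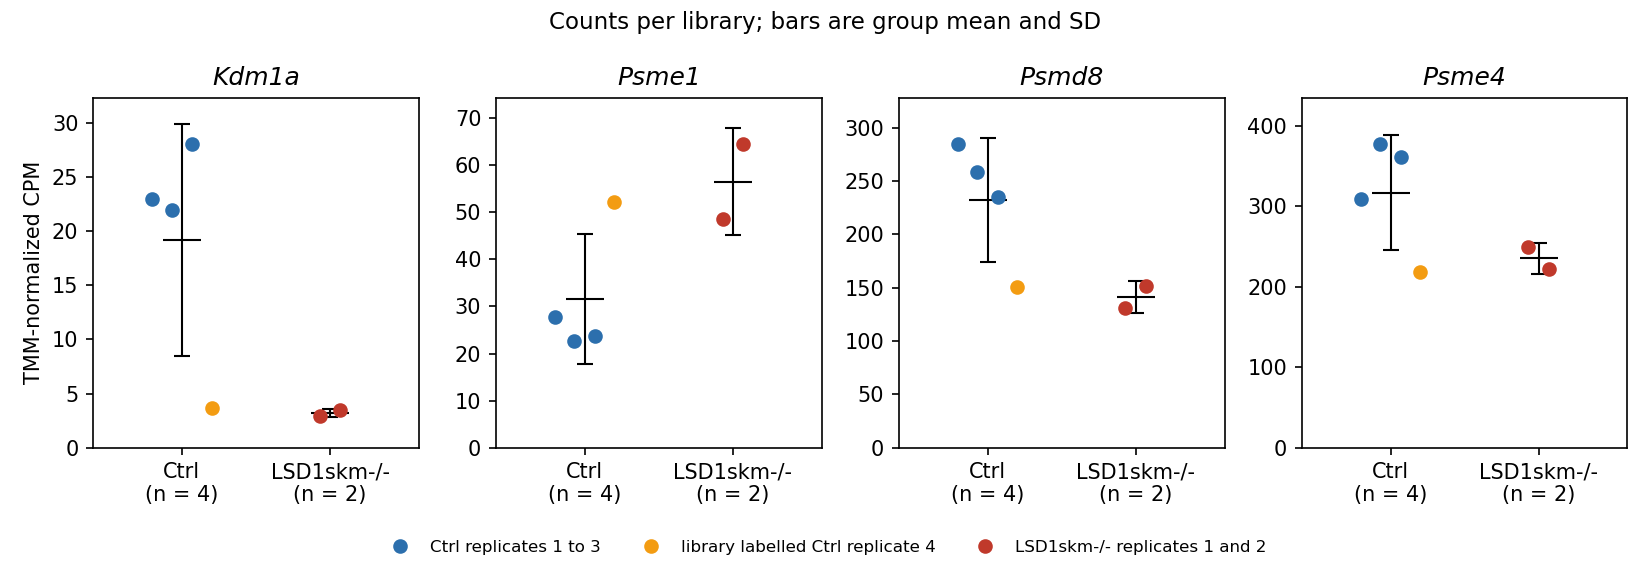
CPM of *Kdm1a*, *Psme1*, *Psmd8* and *Psme4* in each library (points), with the mean and SD of each labelled group (bars). The library labelled Ctrl replicate 4 lies by the LSD1skm-/- libraries in each panel, at 3.66, 52.1, 150.4 and 219 CPM.

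The promoter windows of these 3 genes are shown because they are the members that passed the test, and they were searched for 4 motifs of known regulators. RefSeq windows on GRCm38.p6 run from 250 bases before to 50 bases after the gene start, and 36 of the 42 members had one. Each is printed from 5′ to 3′ on the strand of the gene, with motif matches in capitals. The window of *Psme1* is chr14:55578244-55578543 on the plus strand, that of *Psmd8* chr7:29180624-29180923 on the minus strand, and that of *Psme4* chr11:30771525-30771824 on the plus strand.
Psme1: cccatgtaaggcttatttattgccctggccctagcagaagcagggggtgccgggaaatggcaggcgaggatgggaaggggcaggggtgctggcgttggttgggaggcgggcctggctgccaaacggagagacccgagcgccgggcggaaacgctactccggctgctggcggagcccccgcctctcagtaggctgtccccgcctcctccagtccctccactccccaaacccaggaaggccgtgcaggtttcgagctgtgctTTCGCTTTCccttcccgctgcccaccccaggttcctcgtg
Psmd8: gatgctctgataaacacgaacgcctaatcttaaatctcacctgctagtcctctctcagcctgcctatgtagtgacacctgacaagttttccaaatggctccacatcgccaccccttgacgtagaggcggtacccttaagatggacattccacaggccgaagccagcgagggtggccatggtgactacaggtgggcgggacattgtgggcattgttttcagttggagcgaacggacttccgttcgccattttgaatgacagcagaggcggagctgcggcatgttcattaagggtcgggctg
Psme4: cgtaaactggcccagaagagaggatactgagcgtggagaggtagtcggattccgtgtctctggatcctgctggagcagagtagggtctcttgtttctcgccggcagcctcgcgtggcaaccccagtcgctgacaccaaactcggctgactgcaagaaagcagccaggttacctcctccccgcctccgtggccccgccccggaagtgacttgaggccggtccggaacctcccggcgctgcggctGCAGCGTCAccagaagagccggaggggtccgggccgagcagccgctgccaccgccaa
The capitals in *Psme1* are 1 match to the interferon regulatory factor motif GAAANNGAA, on the opposite strand, and those in *Psme4* are 1 match to the antioxidant response element TGACNNNGC, also on the opposite strand. *Psmd8* held no match. Over all 39 windows of members, the interferon regulatory factor motif occurred in 6 (15.4%), against 8.56% of 32851 windows in the table. The antioxidant response element occurred in 6 (15.4%), against 12.4%. The NRF1 motif GCATGCGC occurred in 2 (5.13%), those of *Psma2* and *Psmc5*, against 2.71%, and the FOXO motif GTAAACA in 0, against 3.65%. Both strands were searched, and none of the motifs contains another. The RefSeq start of *Psme1* lies downstream of the GENCODE start given above. The median GC content was 59.0% in windows of members and 52.7% in all windows, and a match describes letters in the window and not a bound site.

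Genes near *Psme1* had log2 fold changes nearer to 0, a difference that was not tested. Its partner *Psme2*, which encodes the beta subunit of the same activator and lies 5912 bases away, measured from 5.33 to 6.89 CPM in the Ctrl libraries and 3.84 and 6.65 CPM in LSD1skm-/- muscle. The log2 fold change of *Psme2* was -0.16 with all libraries and -0.15 without the library labelled Ctrl replicate 4. It turned to 0.176 without LSD1skm-/- replicate 1 and was -0.609 without LSD1skm-/- replicate 2. Some 59.3% of its 50-base stretches also occur in other genes. The neighbours *Fitm1*, *Rnf31* and *Dcaf11* had log2 fold changes of -0.005, 0.015 and -0.07 with all libraries and of -0.04, 0.06 and -0.11 without that library. *Emc9*, which overlaps *Psme1* by 14 exon bases, was at 0.26 and 0.31, and whether counting separated the 2 is not known. Near *Psmd8*, *Fam98c* was at -0.02 and -0.002 and *Spred3* at 0.02 and 0.43. Without the library labelled Ctrl replicate 4, *Spred3* had mean counts of 46.67 in Ctrl and 64 in LSD1skm-/- muscle. These lie on either side of the count limit, so its value of 0.43 is a description. The distance of 20000 bases within which neighbours were taken was chosen after values were seen.

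No immunoproteasome subunit passed an adjusted p of 0.05 in edgeR or DESeq2 under any alternative run. With and without the library labelled Ctrl replicate 4, 1 of 3, *Psmb8*, had an unadjusted p under 0.05. Over all tested genes the shares with such a p were 8.9% with that library and 20.2% without it. *Psmb8* measured 5.30, 4.90 and 3.16 CPM in Ctrl replicates 1 to 3, 4.25 CPM in the library labelled Ctrl replicate 4, and 2.77 and 2.95 CPM in LSD1skm-/- replicates 1 and 2. Both LSD1skm-/- libraries lay below every Ctrl library, with Ctrl replicate 3 nearest to them. On the log2 scale *Psmb8* differed by -0.62 (adjusted p = 0.557 in edgeR, standard error 0.24) and by -0.63 without the library labelled Ctrl replicate 4 (adjusted p = 0.214 in edgeR). Over all alternatives the adjusted p ran from 0.0576 to 0.947, so it did not pass. *Psmb9* measured 2.05, 2.65, 1.10 and 1.90 CPM in the Ctrl libraries and 1.32 and 1.04 CPM in LSD1skm-/- muscle, and the groups overlapped through Ctrl replicate 3. The counts of *Psmb9* were 71, 86, 38 and 83 in Ctrl and 42 and 39 in LSD1skm-/- muscle. It therefore passed the count limit through the Ctrl group, which favours a lower value in LSD1skm-/- muscle, and its log2 fold change of -0.71 in both fits is a description. The log2 fold change of *Psmb10* was -0.11 and -0.13, turning to 0.012 without LSD1skm-/- replicate 1.

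Each immunoproteasome subunit takes the place of a constitutive catalytic subunit, *Psmb8* that of *Psmb5*, *Psmb9* that of *Psmb6* and *Psmb10* that of *Psmb7*. The *Psmb8* level was 18.8, 18.3, 11.7 and 17.2% of the *Psmb5* level in Ctrl replicates 1 to 4 and 11.7 and 9.65% in LSD1skm-/- muscle. The mean log2 ratio differed by -0.60 between genotypes, with p = 0.067 in an exact two-sided permutation test, the smallest that 4 against 2 libraries allow, and 0.2 adjusted over the 3 pairs. Without the library labelled Ctrl replicate 4 the difference was -0.57, with an exact p of 0.2 where 0.1 is the smallest possible. For *Psmb10* over *Psmb7* the difference was -0.08 (exact p = 0.467), and without that library -0.05 (exact p = 0.8). For *Psmb9* over *Psmb6* it was -0.64 and -0.58, as a description only, because of the count limit. With each library left out it ran from -0.961 to -0.318, and for *Psmb10* over *Psmb7* from -0.149 to -0.048. The ratios are not ratios of transcripts, since transcript lengths differ and 57.1% of the 50-base stretches of *Psmb5* are shared with other genes.

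**Figure D2:**
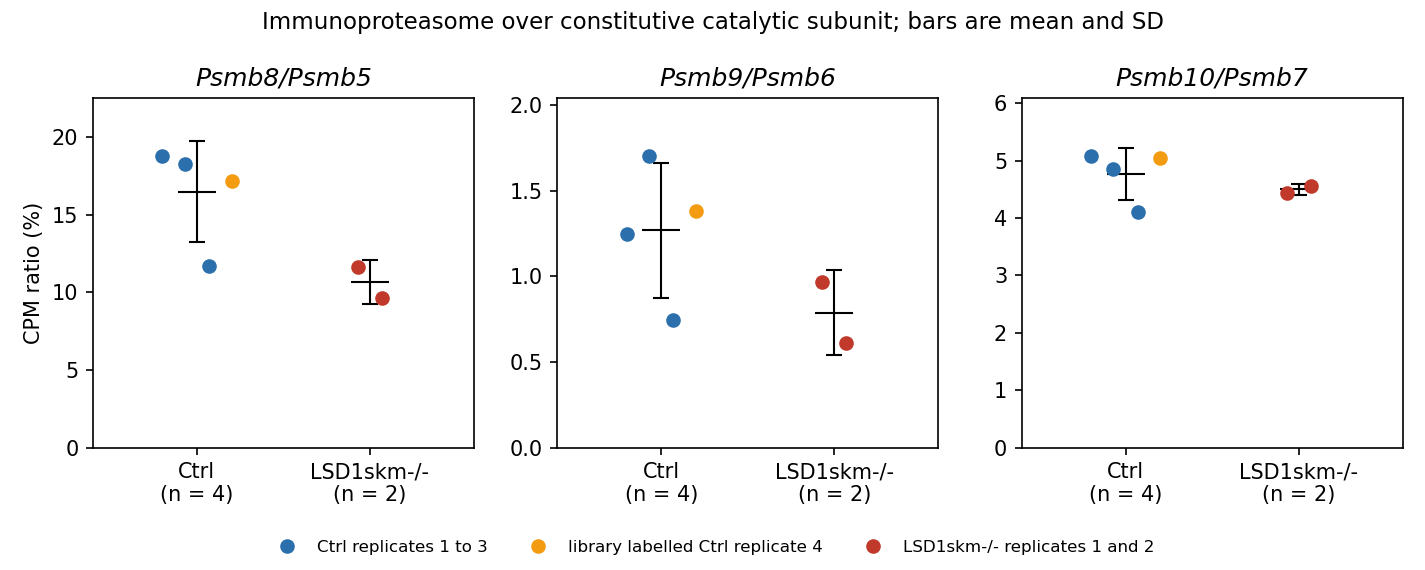
CPM of each immunoproteasome subunit as a percentage of the constitutive subunit it replaces, per library (points), with the mean and SD of each labelled group (bars). *Psmb8* over *Psmb5* was lowest in LSD1skm-/- replicate 2, at 9.65%, and Ctrl replicate 3 lay near LSD1skm-/- replicate 1 at 11.7%.

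Leukocytes express immunoproteasome subunits, and leukocyte markers also differed between libraries. *Ptprc* encodes CD45, by which the study selects immune cells in general, and so does not mark lymphocytes alone. Of 7 genes listed as lymphocyte markers 1, *Ptprc*, passed the count limit, and *Cd3e*, *Cd3g*, *Cd79a* and *Cd8a* were at 0 in some libraries. Their summed level was 20.2 and 17.5 CPM in Ctrl replicates 1 and 2, 1.19 in Ctrl replicate 3, 2.40 in the library labelled Ctrl replicate 4, and 2.40 and 2.39 CPM in LSD1skm-/- replicates 1 and 2, with *Ptprc* the most abundant. The macrophage markers, 6 of 7 tested and led by *Lyz2*, summed to 77.6, 63.4, 33.5 and 57.0 CPM in Ctrl replicates 1 to 4 and to 50.4 and 81.7 CPM in LSD1skm-/- muscle. With all libraries the 6 log2 fold changes were all positive, with a median of 0.29. Without the library labelled Ctrl replicate 4 the median was 0.36 and 1 was negative. Apart from *Adgre1*, 0 of the macrophage markers had an unadjusted p under 0.05 in either fit. *Adgre1* had counts of 52, 40, 29 and 68 in Ctrl and 54 and 80 in LSD1skm-/- muscle and so passed the count limit through the LSD1skm-/- group, which favours a higher value there. Its log2 fold changes of 0.57 and 0.69 are a description. *Ptprc* had none in either fit, at log2 fold changes of -1.17 and -1.43, but passed an adjusted p of 0.05 in edgeR with a replicate block. The part of leukocytes in the result was not tested. Genes of antigen presentation that act with the immunoproteasome gave 0 of 7 tested with an unadjusted p under 0.05 in either fit, with median log2 fold changes of -0.03 and 0.02. Among 11 tested interferon-response genes 0 had such a p with all libraries. *Irf7*, at 0.15 and 0.51, had one without the library labelled Ctrl replicate 4 but was at -0.099 without LSD1skm-/- replicate 2, and the medians were -0.07 and -0.075. *Iigp1* was the lowest of the list, at -1.20 and -1.33, with groups that overlapped and 20.05 CPM in Ctrl replicate 1. It passed an adjusted p of 0.05 in edgeR with a replicate block. Summed levels were 68.6, 71.0, 50.8, 79.7, 65.7 and 60.6 CPM for the interferon genes in library order, led by *Gbp7*, and 240.3, 245, 189, 313.5, 228 and 252 CPM for antigen presentation, led by *B2m*.

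No constitutive core subunit passed an adjusted p of 0.05 in edgeR or DESeq2, with or without the library labelled Ctrl replicate 4. The 7 alpha subunits, which form the outer rings, had log2 fold changes from -0.20 for *Psma3* to 0.02 for *Psma1* with a median of -0.06, and -0.07 without that library, but 0.077 without LSD1skm-/- replicate 1. The 7 constitutive beta subunits ran from -0.16 for *Psmb3* to 0.04 for *Psmb4*, with a median of -0.02. The median was -0.04 without the library labelled Ctrl replicate 4, but 0.078 without LSD1skm-/- replicate 1 and 0.021 without Ctrl replicate 1. Under library size scaling it was 0.015, but the median over all tested genes moved alike, from -0.008 to 0.029. Unadjusted p values under 0.05 numbered 0 with all libraries and 1 without the library labelled Ctrl replicate 4, that of *Psma3*. Over all tested genes the shares were 8.9% and 20.2%. The catalytic *Psmb5*, *Psmb6* and *Psmb7* had log2 fold changes of 0.03, 0.02 and -0.02 with all libraries. Without the library labelled Ctrl replicate 4 they were at -0.006, -0.023 and -0.066.

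In the regulatory particle most values were negative. Of 17 subunits of the base and lid, 16 had a negative log2 fold change with all libraries and 16 without the library labelled Ctrl replicate 4, with medians of -0.16 and -0.19, where the median over all tested genes was -0.008 and -0.006 and 51.4% and 51% of them were negative. Without LSD1skm-/- replicate 1 the number was 13 and the median -0.072, with the ATPases at -0.047 and the lid at -0.07, and *Psmc5* and *Psmc6* turned to 0.081 and 0.046. The medians of the ATPases, the other base subunits and the lid were negative under each scaling run. Of the 14 constitutive core subunits, 8 were negative with all libraries and 12 without the library labelled Ctrl replicate 4. The difference from the core was not tested. The 6 ATPases, which unfold the substrate, ran from -0.18 for *Psmc2* to -0.04 for *Psmc6*. The ubiquitin receptor *Psmd4* measured 150, 130, 153 and 124 CPM in Ctrl replicates 1 to 4 and 108 and 116 CPM in LSD1skm-/- muscle. Both LSD1skm-/- libraries lay below every Ctrl library, at -0.315 on the log2 scale (adjusted p = 0.557 in edgeR) and at -0.36 without the library labelled Ctrl replicate 4 (adjusted p = 0.123 in edgeR, over all alternatives from 0.0373 in DESeq2 without that library to 0.947). In the lid, *Psmd12* was at -0.23 and -0.28, *Psmd11* at -0.16 and -0.20, and *Psmd13* was the one member above 0, at 0.10 and 0.08. The base assembly chaperones *Psmd5*, *Psmd9* and *Psmd10* had a median of -0.02, and of -0.056 without the library labelled Ctrl replicate 4. Under library size scaling the median was 0.021, with the same move of all genes. *Psme3*, a nuclear activator, was at -0.08 and -0.13.

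**Figure D3:**
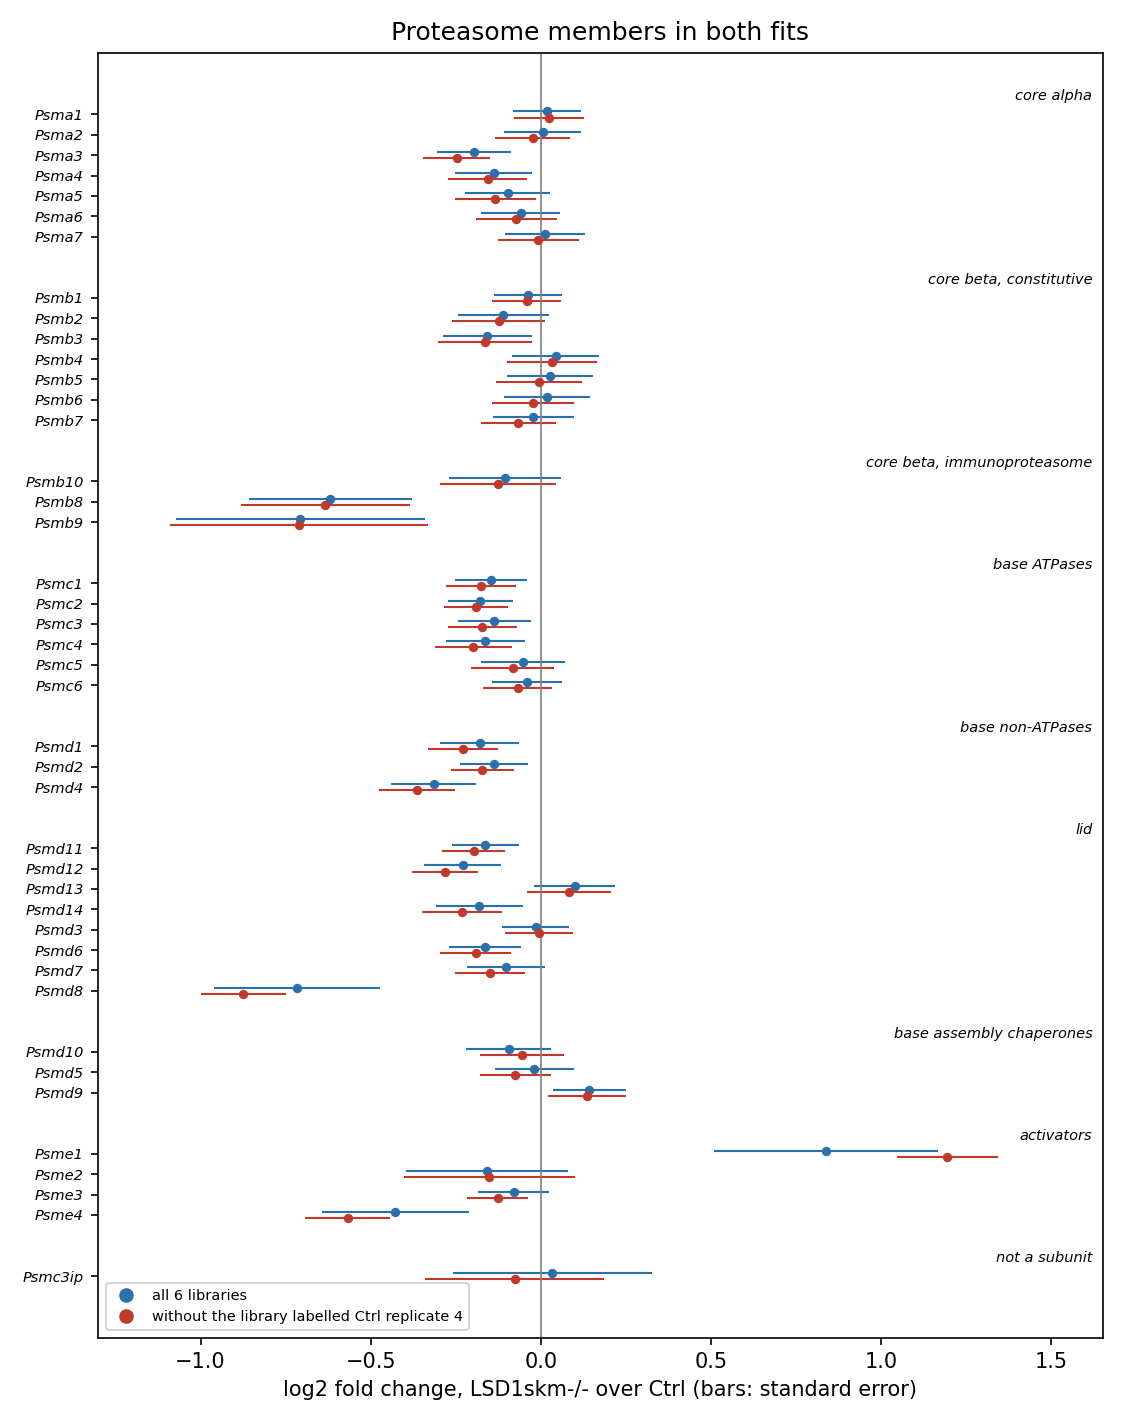
Log2 fold change of each of the 42 members with its standard error, with all 6 libraries and without the library labelled Ctrl replicate 4. *Psme1* lies to the right at 0.84 and 1.19, and *Psmd8* to the left at -0.717 and -0.875.

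With all 6 libraries an unadjusted p under 0.05 was found for 4 members, *Psme1*, *Psmd8*, *Psmd4* and *Psmb8*, and for 1011 of all tested genes. Without the library labelled Ctrl replicate 4 it was found for 7 members against 20.2% of all tested genes. The 3 members that passed without the library labelled Ctrl replicate 4 were 1 higher, where the background was 4.36%, and 2 lower, where it was 1.02%. The study thresholds, an unadjusted p under 0.05 and a fold change above 1.3 or below 0.77, were passed by 3 members (7.14%) with all libraries against 6.31%, with 1 higher (background 3.43%) and 2 lower (2.88%). Without that library they were passed by 4 members (9.52%) against 15.2%, with 1 higher (10.1%) and 3 lower (5.05%). With 1 library left out, they were passed by 1 member without Ctrl replicate 1 (background 4.17%), by 1 without Ctrl replicate 2 (5.07%) and by 3 without Ctrl replicate 3 (5.02%). They were passed by 0 without LSD1skm-/- replicate 1 (background 7.01%) and by 1, *Psme2*, without LSD1skm-/- replicate 2 (2.99%). The shares over both directions lie near or below the background, and those in 1 direction rest on few genes.

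A negative log2 fold change was found for 32 of 42 members (76.2%) against 51.4% of all tested genes, and for 37 (88.1%) against 51% without the library labelled Ctrl replicate 4. Under library size scaling the number was 29, against 44.4% of all tested genes. *Psmb9*, for which the count limit favours a lower value, is among these members. Both LSD1skm-/- libraries lay below every Ctrl library for 6 members (14.3%) against 8.02%, and for 17 (40.5%) against 17.3% without that library. They lay above for 0 members against 9.8%, and for 1 against 20.3%. Groups that did not overlap in either direction made up 17.8% and 37.7% of all tested genes. Members share regulators and are not independent.

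For most subcomplexes LSD1skm-/- replicate 1 was the lowest library. The median deviation of the alpha subunits from each gene's mean was 0.15, 0.03, -0.04 and -0.06 (log2 CPM) in Ctrl replicates 1 to 4, -0.14 in LSD1skm-/- replicate 1 and 0.105 in LSD1skm-/- replicate 2. The ATPases showed 0.12, 0.02, 0.08 and -0.06 in Ctrl and -0.18 and 0.01 in LSD1skm-/- muscle. When LSD1skm-/- replicate 1 was left out, 23 of 42 members were lower and their median log2 fold change was -0.03, whereas 40 were lower with a median of -0.19 when LSD1skm-/- replicate 2 was left out. In both cases the lone LSD1skm-/- library was assumed to vary like the others.

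**Figure D4:**
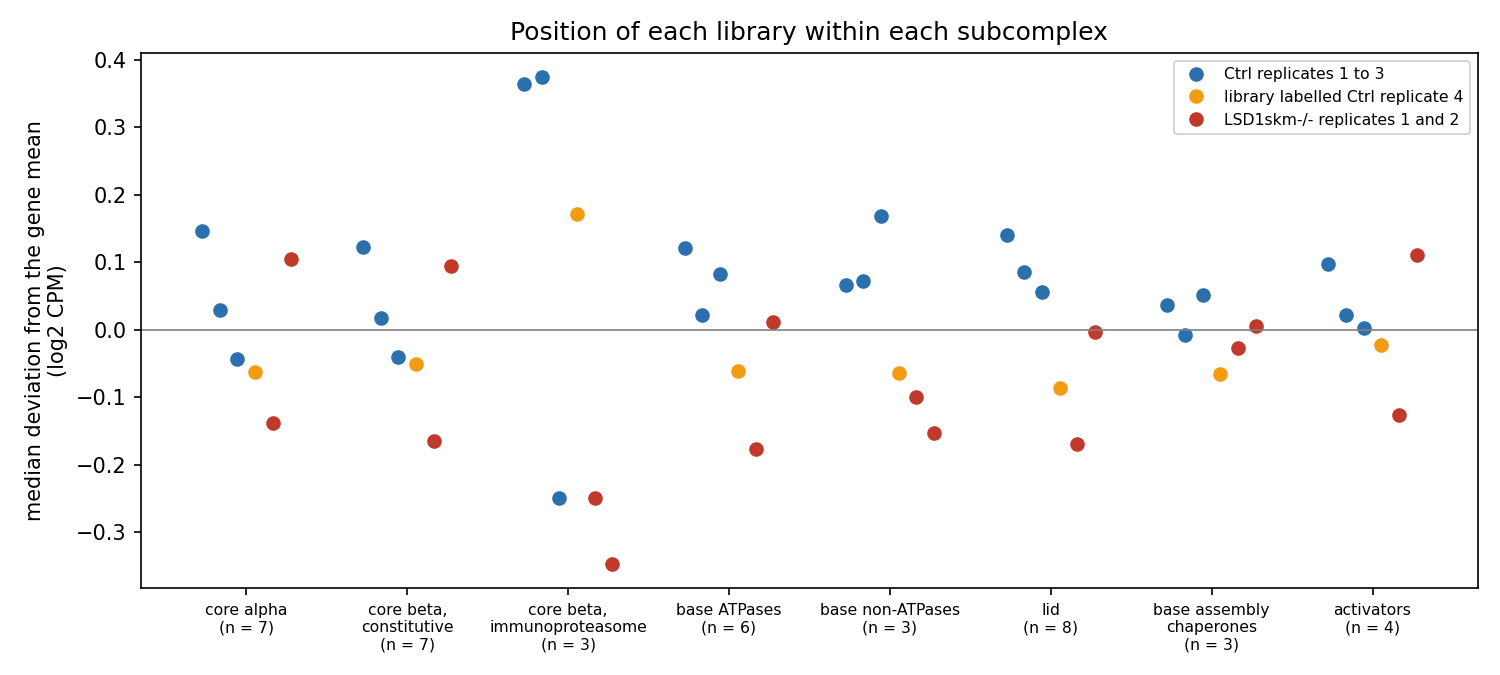
Median over the members of each subcomplex of the deviation of log2 CPM from the gene's mean over libraries. In the alpha and constitutive beta subunits LSD1skm-/- replicate 1 is lowest, at -0.14 and -0.165, and LSD1skm-/- replicate 2 lies among the Ctrl libraries at 0.105 and 0.095.

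Genes that build or serve the proteasome were taken from lists. Of 5 core assembly chaperones, 0 had an unadjusted p under 0.05 in either fit, with medians of -0.06 and -0.07. Other subunits and bound enzymes, 8 genes, were all negative in both fits, where 51.4% and 51% of all tested genes were. Their medians were -0.19 and -0.255. Without the library labelled Ctrl replicate 4, 2 of them passed the study thresholds, against 15.2% of all tested genes. These were *Ecpas*, an adaptor that holds the particle together, at -0.30 with all libraries and -0.43 without, and *Zfand5*, a stimulator of the proteasome known from muscle atrophy, at -0.27 and -0.38. *Zfand5* was at -0.102 without LSD1skm-/- replicate 2, -0.172 without Ctrl replicate 3 and -0.458 without LSD1skm-/- replicate 1, and *Ecpas* at -0.197 without LSD1skm-/- replicate 2. *Usp14*, a deubiquitinase of the base, was at -0.19 and -0.25. *Nfe2l1*, the factor that raises transcription of proteasome genes, measured 684, 671 and 697 CPM in Ctrl replicates 1 to 3, 500 CPM in the library labelled Ctrl replicate 4, and 536 and 488 CPM in LSD1skm-/- muscle. The log2 fold change of *Nfe2l1* was -0.32 and -0.42, and it did not pass an adjusted p of 0.05 in edgeR in either fit. In DESeq2 without that library its adjusted p was 0.000905, and over all alternatives it ran from there to 0.947. That DESeq2 fit also called *Ecpas* and, of the genes named next, *Rad23b* and *Ubqln4*. In the list of proteasome transcription factors and their processing, 0 of 7 passed the study thresholds with all libraries and 1 without that library. Over all tested genes the shares were 6.31% and 15.2%. Among 5 ubiquitin shuttle factors, *Rad23b*, at -0.32 and -0.39, had an unadjusted p under 0.05 with all libraries, and *Ubqln4* was at -0.25 and -0.31. Of 5 tested ubiquitin and ubiquitin-activating enzyme genes 0 had an unadjusted p under 0.05 in either fit.

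Markers of other cells differed between libraries too. All 6 fibroblast markers had positive log2 fold changes in both fits, *Col1a1* turning to -0.088 without LSD1skm-/- replicate 2, with summed levels of 430, 405, 436 and 615.5 CPM in Ctrl replicates 1 to 4 and 565 and 665 CPM in LSD1skm-/- muscle, with *Dcn* the most abundant. Like *Psme1*, their sum was high in the library labelled Ctrl replicate 4, mainly through *Col3a1* at 227 CPM and *Col1a1* at 99.6 CPM. In Ctrl replicates 1 to 3 these measured 101.7 to 107.4 and 39.4 to 46.2 CPM. *Dcn*, at 220 CPM, lay within the 195.7 to 232.9 CPM of Ctrl replicates 1 to 3. *Pdgfra*, *Dpt* and *Lum*, at 16.4, 36.9 and 15.4 CPM, lay above the highest of those replicates, at 15.6, 36.3 and 12.3 CPM. Without the library labelled Ctrl replicate 4, 2 fibroblast markers passed an adjusted p of 0.05 in edgeR, against 5.39% of all tested genes. These were *Col3a1* at a log2 fold change of 0.85 and *Lum* at 0.81. With that library *Col3a1* was at 0.47 and none passed. An unadjusted p under 0.05 was then found for 4, against 8.9% of all tested genes. DESeq2 without that library also called *Col1a1* and *Dcn*. Endothelial markers, 7 tested and led by *Flt1*, summed to 258, 246, 281 and 284 CPM in Ctrl and to 219 and 212 CPM in LSD1skm-/- muscle. Of these, 2 had an unadjusted p under 0.05 with all libraries, *Cdh5* and *Pecam1*, against 8.9% of all tested genes. Without the library labelled Ctrl replicate 4, 3 did, with *Flt1* added, against 20.2%, and all 3 had negative values. *Vwf*, named after its values were seen, went the other way at 0.22 in both fits, with 14.7 and 16.5 CPM in LSD1skm-/- muscle above 12.6 to 14.2 CPM in Ctrl. Adipocyte markers, 5 of 6 tested and led by *Fabp4*, summed to 348, 303, 171.5 and 487 CPM in Ctrl and to 166 and 177 CPM in LSD1skm-/- muscle. Of these *Cfd* passed the study thresholds in both fits, at -3.54 and -3.25. *Cidec*, *Adipoq* and *Plin1* had mean counts of 359, 410 and 205.8 in Ctrl and 10.5, 12.5 and 4.5 in LSD1skm-/- muscle. They thus passed the count limit through the Ctrl group, which favours a lower value, and their log2 fold changes of -4.98, -4.91 and -5.34 with all libraries are a description. Fitted without the limit, edgeR called these 3 and *Cfd* at an adjusted p of 0.05 with all libraries. For the adipocyte markers Ctrl replicate 3 was low like the LSD1skm-/- libraries. Satellite cell markers, 3 genes led by *Chodl*, summed to 8.80, 9.64, 13.5 and 16.6 CPM and to 16.3 and 12.8 CPM, and *Myf5*, with mean counts of 44.25 in Ctrl and 72.5 in LSD1skm-/- muscle, passed the count limit through the LSD1skm-/- group, so that its values of 0.84 and 1.12 are a description. Of the myofiber markers 1 of 7, *Myh4*, passed the study thresholds in both fits, at -0.42 and -0.52, against 6.31% and 15.2% of all tested genes. DESeq2 called *Myh4* without the library labelled Ctrl replicate 4. Their part in the results on *Psme1*, *Psmd8* and *Psme4* was not tested.

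Levels per length were set side by side over all 6 libraries. Per kilobase of the longest coding transcript, the median member measured 52.7 CPM among alpha subunits, 67.5 among constitutive beta subunits, 67.3 among ATPases, 63.4 among the other base subunits and 55.7 in the lid. It was 28.9 CPM per kilobase among activators, 5.79 among base assembly chaperones and 2.39 among immunoproteasome subunits. The highest of each were *Psma6* at 114, *Psmb6* at 190.5, *Psmc5* at 119, *Psmd4* at 74.2, *Psmd7* at 108, *Psme4* at 44.6, *Psmd9* at 8.18 and *Psmb10* at 6.64 CPM per kilobase. Within each labelled group the order differed in a pair of subcomplexes. In LSD1skm-/- muscle *Psme1* was the highest activator, at 50.85 CPM per kilobase against 36.3 for *Psme4*, and in Ctrl muscle *Psmd8* was the highest lid subunit, at 117 against 110.8 for *Psmd7*. Alpha subunits are needed in equal number in the particle, yet their level per length ran from 8.40 for *Psma5* to 114, and 55.4% of the 50-base stretches of *Psma5* are shared with other genes. Per kilobase of unshared sequence *Psma5* measured 18.8 CPM and the lowest alpha subunit was *Psma3* at 15.8, so the order within a subcomplex depended on the length used. The immunoproteasome subunits and the assembly chaperones had the lowest medians with each of the 3 lengths, among the subcomplexes compared.

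**Figure D5:**
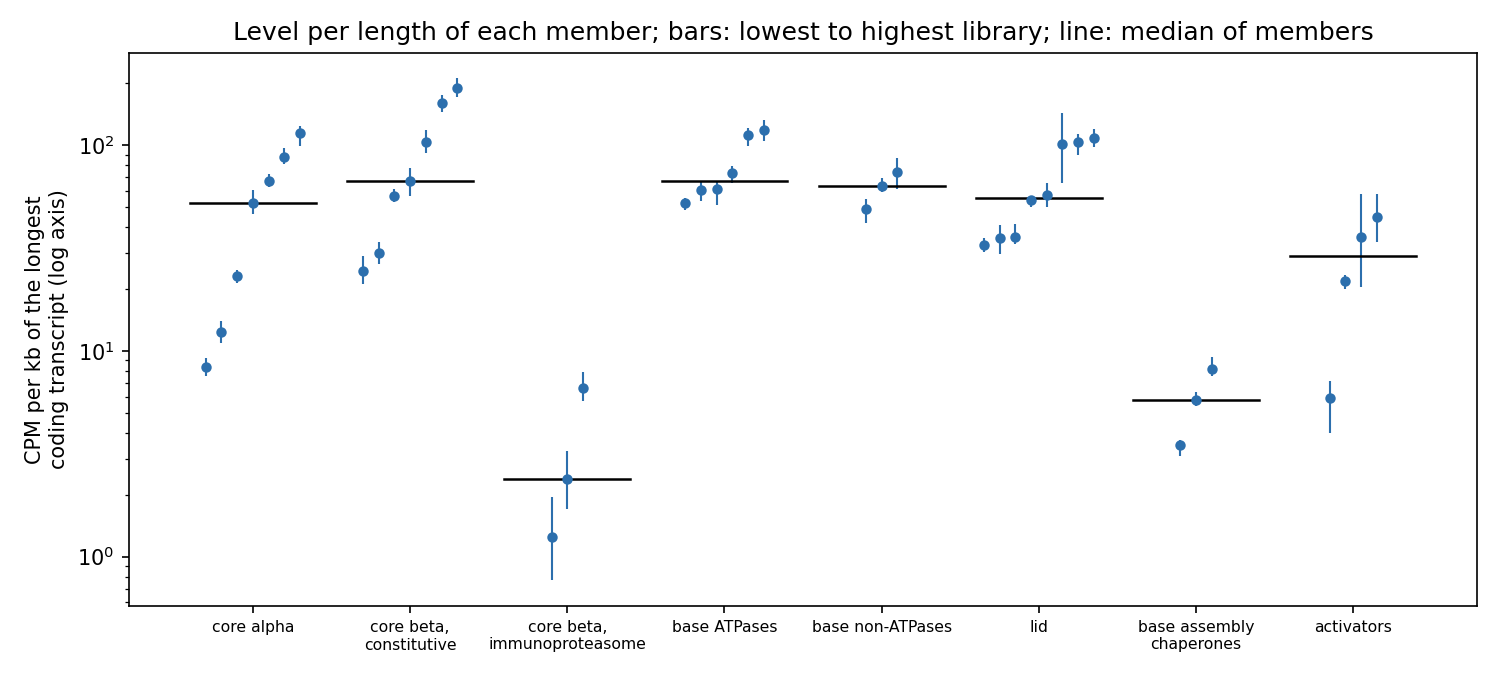
Level of each member as CPM per kilobase of its longest coding transcript, on a log axis, with points for the mean over 6 libraries, bars from the lowest to the highest library and a line at the median of the subcomplex. The medians run from 2.39 for immunoproteasome subunits to 67.5 for constitutive beta subunits.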

How the data were processed

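The authors mapped reads to mm10, kept uniquely aligned reads and deposited whole-number counts per gene without normalization. Base calling used bcl2fastq 2.20.0.422 per the submitters' processing notes, whereas the methods of the study give another version of it. For mapping the methods name htseq-count, a program that counts reads already aligned, and no other aligner for these libraries. The library kit keeps strand, and whether counting used it is not given in the sources used here, so genes that overlap others on the opposite strand are uncertain.

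Members and lists were chosen with earlier results of these data known. Rows with a mean count above 50 were compared with edgeR 4.0.16 (TMM, quasi-likelihood test, with genotype alone in the model), run in R 4.3.3. P-values were adjusted by Benjamini-Hochberg over 11364 genes. Standard errors came from the F statistic. Alternatives were DESeq2 1.42.0, other scalings, no filter, a replicate block, each library left out and other thresholds. For single genes and subcomplex medians, DESeq2 without the library labelled Ctrl replicate 4 was added after the data were seen. Ratios used log2 CPM with a prior count of 2. The fits were tested on simulated data. They gave nearly every planted change its right sign but missed many at the threshold, more so without the library labelled Ctrl replicate 4, where recovery fell short of a limit that was then replaced by checks of sign and false calls. No library was a copy of another: for each pair, chi-square divided by its degrees of freedom lay between 32.9 and 127. The labels do not say whether each library came from a separate mouse, so p-values measure the spread between these libraries.

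Named genes were *Kdm1a*, the catalytic and immunoproteasome pairs, the activators, the extremes of change and of level per length in each subcomplex, members with an unadjusted p under 0.05 in either fit, members at the count limit, and up to 4 such genes per list. Other names were given after their values were seen, as were both alternative lengths. Gene positions, transcripts and shared stretches are from GENCODE vM21 on GRCm38, and promoter windows from RefSeq on GRCm38.p6.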

Additional observations from a re-analysis of the deposited data

Results flagged for a closer look

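A Ctrl library lay far from the other Ctrl libraries for 8 of 65 results. Many of these genes were named for their own values, some through the fit without the library labelled Ctrl replicate 4. No chance rate therefore applies to this number. The gap to the nearest library, as a share of the range of log2 CPM over the 4 Ctrl libraries, was 0.88 for *Kdm1a*, 0.91 for *Usp14*, 0.89 for *Nfe2l1* and 0.93 for *Col3a1*, each because of the library labelled Ctrl replicate 4. It was 0.855 for *Psmb4* and 0.84 for *Psmd13*, with Ctrl replicate 1 the highest, and 0.90 for *Cidec* and 0.91 for *Cfd*, with Ctrl replicate 3 the lowest. Gaps above the 95% critical value of Dixon for 4 samples are given, and the LSD1skm-/- group, with 2 libraries, was not tested.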

How the results depend on the processing

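The directions of *Psme1*, *Psmd8*, *Psme4*, *Psmb8* and *Psmd4* held under each alternative run. *Psmb9* also stayed negative, but the count limit favours a lower value for it, so this is a description. Members past an adjusted p of 0.05 numbered 0 with all libraries in edgeR and in DESeq2, 4 with DESeq2 without the library labelled Ctrl replicate 4, and 0 to 3 with each library left out; those past the study thresholds 3, 1 under library size scaling, and 0 to 4 with each library left out. All genes past an adjusted p of 0.05 numbered 0, with 46 in DESeq2, 149 without a filter, 1056 in DESeq2 without that library and 0 to 612 with each library left out, and past the study thresholds 717, 1909, 1664 and 340 to 1724 (the second without a filter, the third in DESeq2 without that library). With each library left out, medians ran from -0.174 to 0.077 for alpha, from -0.155 to 0.078 for constitutive beta, from -0.223 to -0.047 for ATPases and from -0.22 to -0.07 for lid subunits. Log2 fold changes near 0 changed sign: *Psmb7* was at 0.015 and *Psmd5* at 0.021 under library size scaling, which moved the median of all genes alike, from -0.008 to 0.029, *Psmb5* at -0.016, *Psmb6* at -0.033 and *Psmc3ip* at -0.087 in DESeq2 without the library labelled Ctrl replicate 4, and with each library left out *Psmb5* ran from -0.17 to 0.19, *Psmb6* from -0.14 to 0.16, *Psmb7* from -0.136 to 0.078, *Psmb10* from -0.243 to 0.012, *Psme2* from -0.61 to 0.18, *Psma1* from -0.083 to 0.107, *Psma6* from -0.215 to 0.077, *Psmb4* from -0.155 to 0.21, *Psmc6* from -0.139 to 0.046, *Psmc5* from -0.205 to 0.081, *Psmd13* from -0.078 to 0.25, *Psmd5* from -0.075 to 0.006, *Psmc3ip* from -0.20 to 0.22, *Irf7* from -0.10 to 0.51 and *Col1a1* from -0.088 to 0.577. The cause was not tested. Leaving out an LSD1skm-/- library leaves 1, assumed to vary like the Ctrl libraries. The number of LSD1skm-/- libraries limits precision. With a replicate block, in which Ctrl replicates 3 and 4 have no partner and so do not enter the genotype term, 2 members and 632 genes passed an adjusted p of 0.05 in edgeR. The members were *Psme1* at 1.155 and *Psmd8* at -0.946, with adjusted p of 0.00148 and 0.00506 in edgeR, where all alternatives spanned 1.5e-09 to 0.947 and 1.34e-08 to 0.947. Of the listed genes the block called *Ptprc*, *Iigp1*, *Lum*, *Col3a1* and *Cfd*. The block also called *Adipoq*, *Plin1*, *Cidec* and *Myf5*. The first of these passed the count limit through the Ctrl group, as did *Plin1* and *Cidec*, and *Myf5* through the LSD1skm-/- group. Those calls are therefore a description. Under the block 5 members and 1668 genes passed the study thresholds, and *Psmb5* was at -0.028, *Psmb6* at -0.072, *Psma1* at -0.003 and *Psmb4* at -0.012; deviations of libraries with the same number had correlations of -0.23 and -0.03, so they were taken to share only a number.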
